A study of Mus musculus with 8 samples.

Results

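The genes described here are 10 genes whose proteins build the Z-disc of the muscle sarcomere or report its stretch to the nucleus: Actn2, Actn3, Ldb3, Myot, Flnc, Tcap, Csrp3, Ankrd1, Ankrd2 and Des. They were chosen by name, with earlier results of these data known. Each has 1 probe set annotated to a single gene symbol, and they are 10 of 19938 genes measured. RNA came from the soleus, a calf muscle rich in slow fibres. All mice were male, 5 months old and sampled under anaesthesia in the basal state. One group was 4 Ts65Dn mice, a model of Down syndrome that carries an extra copy of segments of chromosomes 16 and 17, and the other was 4 wild-type (WT) mice labelled B6EiC3SnF1/J, a mixed background of B6 and C3H. Each mouse gave 1 Affymetrix array, and values are log2 RMA values, on which a difference of 1 is a doubling of signal. The RefSeq gene table of GRCm38.p6 places 0 of the 10 genes on chromosome 16 and 0 on chromosome 17.

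The Z-disc is the lattice that anchors the thin filaments of neighbouring sarcomeres and passes force along and between myofibrils. Alpha-actinins cross-link actin there, adaptor and filamin proteins tie the lattice together and to the membrane, and desmin filaments link one Z-disc to the next. A second set of proteins sits at the Z-disc and the adjoining titin spring and is known for responding to stretch: telethonin caps titin, the LIM protein Csrp3 (MLP) binds it, and the ankyrin repeat proteins Ankrd1 (CARP) and Ankrd2 (Arpp) can move to the nucleus. In skeletal muscle, Ankrd1 is normally scarce and is known to be induced by stretch, injury and denervation, whereas Ankrd2 and Csrp3 are typical of slow fibres and Actn3 of fast fibres.

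The sequences upstream of 4 of the 5 genes whose arrays did not overlap between the groups are shown because muscle genes, Ankrd1 among them, are known targets of the TEAD factors, which bind CATTCC (the MCAT core), and of myogenic factors, which bind the E-box CANNTG. They are the 250 bases before the RefSeq start, 5′ to 3′, from build GRCm38.p6, with each CATTCC or its reverse complement GGAATG, and each CANNTG, in capitals. Flnc and Csrp3 have 2 windows each, and for Flnc the one holding CATTCC and for Csrp3 the one farther upstream in the gene is shown.
Ankrd1, chr19:36119845-36120094, minus strand: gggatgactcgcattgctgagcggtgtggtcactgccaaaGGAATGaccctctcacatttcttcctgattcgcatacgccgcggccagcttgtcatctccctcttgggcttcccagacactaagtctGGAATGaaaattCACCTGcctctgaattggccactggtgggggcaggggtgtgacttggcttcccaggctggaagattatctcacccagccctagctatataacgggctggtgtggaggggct
Flnc, chr6:29433006-29433255, plus strand: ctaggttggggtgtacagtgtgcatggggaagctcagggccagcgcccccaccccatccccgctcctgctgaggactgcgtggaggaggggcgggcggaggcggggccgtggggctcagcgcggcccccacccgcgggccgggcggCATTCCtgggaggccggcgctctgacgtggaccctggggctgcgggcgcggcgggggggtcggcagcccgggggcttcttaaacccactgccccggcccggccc
Csrp3, chr7:48848052-48848301, minus strand: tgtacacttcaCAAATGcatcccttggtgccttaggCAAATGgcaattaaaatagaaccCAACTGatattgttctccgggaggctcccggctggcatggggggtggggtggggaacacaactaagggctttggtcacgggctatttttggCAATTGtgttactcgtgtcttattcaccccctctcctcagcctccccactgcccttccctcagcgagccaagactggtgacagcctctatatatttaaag
Ankrd2, chr19:42035777-42036026, plus strand: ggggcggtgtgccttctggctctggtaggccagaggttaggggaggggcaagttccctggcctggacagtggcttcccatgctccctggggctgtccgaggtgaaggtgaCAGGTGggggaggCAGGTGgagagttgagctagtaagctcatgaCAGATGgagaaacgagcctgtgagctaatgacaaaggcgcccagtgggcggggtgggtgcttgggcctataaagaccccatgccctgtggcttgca

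Sequence windows were matched for 7 of the 10 genes. The Ankrd1 window held GGAATG at 2 places, beginning 210 and 123 bases before the start, and at least 2 matches to CATTCC on either strand were found in 1.02% of all 32851 windows of this length. Flnc held 1, which 12.6% of all windows did at least once, and the windows of Csrp3, Ankrd2, Des, Actn2 and Ldb3 held 0. At least 1 E-box CANNTG was found for 5 of the 7 genes, against 66.2% of all windows, with 4 in the printed Csrp3 window and 3 in the Ankrd2 window. The CArG box, the site of serum response factor, was found in Ldb3 alone among the 7 genes (1.47% of all windows), and the MEF2 site in 0 of the 7 (2.92% of all windows). Both strands were searched, the matches in the printed windows do not overlap each other, and a match describes these letters only.

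The groups differed in the spread of their arrays before any single gene was considered. Array medians were 4.23 to 4.29 in Ts65Dn and 4.37 to 4.56 in WT, and interquartile ranges were 3.01 to 3.12 in Ts65Dn and 2.62 to 2.93 in WT, with WT replicates 2 and 3 at the narrow end. Among genes with a mean value between 7 and 9 the median log2 fold change was 0.31, and among genes at 5 or below it was -0.22. For this reason the fold change of each of the 10 genes is also given as a level-matched value, from which the median deviation of the 100 genes nearest in mean value was subtracted on each array. All 7 skeletal muscle markers, among them Acta1 and Ckm, had values of 8.14 or more on every array, as had the 9 slow-fibre markers at 8.13 or more. Of the skeletal muscle markers, the transcription factor Myf6 was called higher with a log2 fold change of 0.92, a call lost after level matching (0.69, limma adjusted p = 0.0879) and without WT replicates 2 and 3 (0.56), and 0 of the slow-fibre markers were called. Over all genes, level matching called 0.371% higher, and 1 of 19938 genes was called higher without WT replicates 2 and 3.

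Most of the 10 genes had a higher mean in Ts65Dn, but 0 of them passed limma's test after Benjamini-Hochberg adjustment over all genes at 0.05, a rule that called 5.26% of all genes, 2.32% higher and 2.94% lower in Ts65Dn. Of the 10, 9 had a positive log2 fold change, against 39.2% of all genes, and their median was 0.34, against -0.10 over all genes. Level-matched, 9 of the 10 were positive with a median of 0.30, against 0.00 over all genes. An unadjusted p under 0.05 with a positive fold change was held by 5 of the 10 (Flnc, Csrp3, Ankrd1, Des and Ankrd2), against 12.3% of all genes, and a negative one by 0 of the 10, against 22.6%. After level matching the same 5 held an unadjusted p under 0.05, against 11.4% of all genes higher. For the same 5 genes the 4 Ts65Dn arrays all lay above the 4 WT arrays, as they did for 6.81% of all genes. That share depended on the level: among genes other than the 10 it was 1.25% at a mean value of 5 or below. It was 11.5% at 5 to 7, where Ankrd1 lies, and 21.5% at 7 to 9, where Flnc lies. At 9 to 11, the level of Des, it was 13.7%, and above 11, the level of Csrp3 and Ankrd2, 4.88%. These counts are a description of 10 genes chosen by name with earlier results of these data known. The adjusted p of the 5 ran from 0.0518 for Flnc to 0.101 for Ankrd2 by limma. Other settings moved some of them past 0.05: Flnc, Csrp3 and Des were called higher with arrays centred on their medians (4.77% of all genes) and with limma's trend and robust options (1.97%), and Flnc without WT replicate 1 (6.09%).

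**Figure D1:**
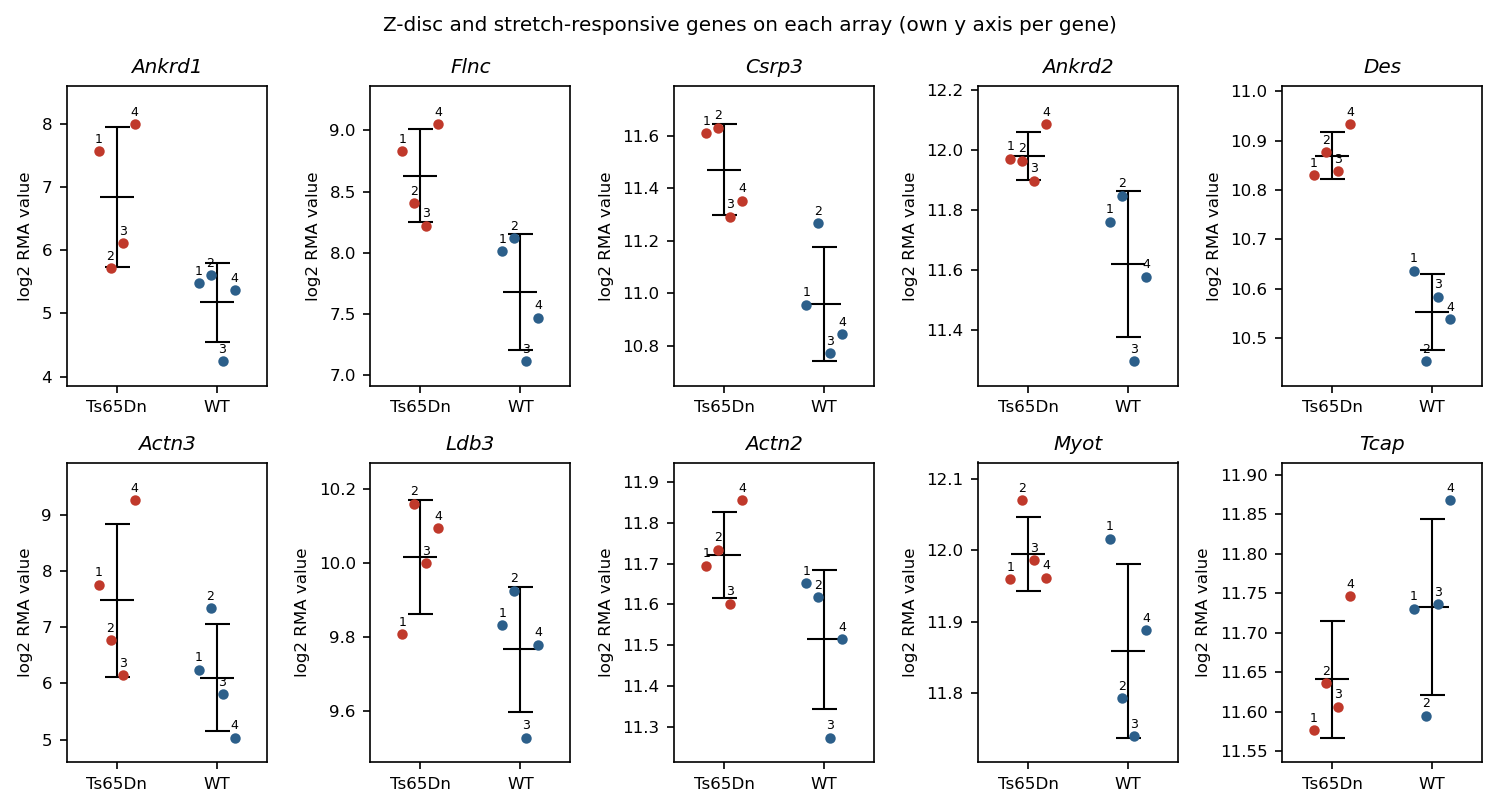
Log2 RMA value (y axis, one scale per gene) of each of the 10 genes on each array, with Ts65Dn at the left and WT at the right of each panel. Points are single mice labelled by replicate number, and bars show mean ± SD (n = 4 each). In the top row all Ts65Dn points lie above all WT points, by 0.02 for Csrp3 to 0.19 for Des, and in the bottom row the groups overlap.

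Among the stretch-sensing genes, Ankrd1 showed the widest difference between group means. Its values were 7.57, 5.71, 6.10 and 7.99 in Ts65Dn replicates 1 to 4, against 5.48, 5.61, 4.25 and 5.37 in WT replicates 1 to 4. The groups did not overlap, but Ts65Dn replicates 2 and 3 lay close to WT while replicates 1 and 4 stood well above it. The mean was 6.84 ± 1.11 in Ts65Dn and 5.17 ± 0.63 in WT (log2, SD, n = 4). The log2 fold change was 1.67, with a standard error of 0.49 and a 95% interval of 0.59 to 2.75 (limma adjusted p = 0.0598). This corresponds to a 3.18-fold difference in signal, and the level-matched value was 1.50. The value of 4.25 in WT replicate 3 was below the median of that array, 4.56. Without Ts65Dn replicate 4 the log2 fold change was 1.29, and without Ts65Dn replicate 2 it was 2.05.

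Ankrd2, the family member of slow fibres, had values of 11.97, 11.96, 11.90 and 12.09 in Ts65Dn, against 11.76, 11.85, 11.30 and 11.58 in WT. All Ts65Dn arrays were again above all WT arrays, here by 0.05 between the nearest pair, and WT replicate 3 was the lowest. The log2 fold change was 0.36 (95% interval 0.05 to 0.67, limma adjusted p = 0.101), level-matched 0.35. The third muscle member of this ankyrin repeat family, Ankrd23 (DARP), lay the other way, at 10.07 ± 0.05 in Ts65Dn and 10.30 ± 0.07 in WT (log2, SD, n = 4), a difference of -0.23 that did not pass (limma adjusted p = 0.144). It was -0.31 level-matched and -0.03 with centred arrays. Its 4 Ts65Dn arrays were all below its 4 WT arrays, as they were for 15.9% of all genes. That share is over all levels, and genes at 9 to 11, where Ankrd23 lies, had a median log2 fold change of 0.14.

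Csrp3, the LIM protein that binds telethonin and the Z-disc, had values of 11.61, 11.63, 11.29 and 11.35 in Ts65Dn, against 10.96, 11.27, 10.77 and 10.84 in WT. Its groups were separate by only 0.02, between Ts65Dn replicate 3 and WT replicate 2. The log2 fold change was 0.51 ± 0.14 (standard error, limma adjusted p = 0.0571), a 1.42-fold difference, and 0.49 level-matched. Tcap encodes telethonin, which caps the end of titin at the Z-disc. It had values of 11.58, 11.64, 11.61 and 11.75 in Ts65Dn and 11.73, 11.59, 11.74 and 11.87 in WT, which overlapped. It was the only one of the 10 with a negative log2 fold change, -0.09 (95% interval -0.34 to 0.16, limma adjusted p = 0.567), which was -0.10 level-matched and 0.11 after centring of the arrays on their medians.

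In the intermediate filament that wraps the Z-disc, desmin (Des) was steady within each group. It was at 10.83, 10.88, 10.84 and 10.93 in Ts65Dn, against 10.64, 10.45, 10.58 and 10.54 in WT, which left a gap of 0.19 between the groups, wider than the range of 0.10 within Ts65Dn and 0.18 within WT. The log2 fold change was 0.32 ± 0.11 (standard error, limma adjusted p = 0.0740), or 1.25-fold, and 0.25 level-matched. Vimentin (Vim), the related filament protein of non-muscle cells, was at 8.56 ± 0.41 in Ts65Dn and 8.26 ± 0.37 in WT (log2, SD, n = 4) with overlapping arrays (limma adjusted p = 0.355), and its difference of 0.30 was -0.0058 level-matched.

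Of the lattice proteins, Flnc, the muscle filamin that links the Z-disc to the membrane, had the smallest adjusted p of the 10 genes. Its values were 8.83, 8.41, 8.22 and 9.05 in Ts65Dn, against 8.01, 8.12, 7.12 and 7.47 in WT. The groups did not overlap, with Ts65Dn replicates 4 and 1 highest and WT replicate 3 lowest. The log2 fold change was 0.95 ± 0.25 (standard error, limma adjusted p = 0.0518), a 1.93-fold difference. Its level-matched value was 0.70, as genes near its level had a median of 0.25. Flna, the filamin of non-muscle cells, was at 4.92 ± 0.24 in Ts65Dn and 4.62 ± 0.17 in WT (log2, SD, n = 4; limma adjusted p = 0.175). Its difference of 0.30 was 0.49 level-matched (limma adjusted p = 0.0909).

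Actn3, the alpha-actinin of fast fibres, spread more widely within its groups than any of the other 9 genes. Its values were 7.76, 6.77, 6.14 and 9.26 in Ts65Dn, against 6.25, 7.33, 5.80 and 5.04 in WT. Only Ts65Dn replicates 1 and 4 lay above the WT range. The log2 fold change was 1.38 with a 95% interval of -0.02 to 2.78 (limma adjusted p = 0.148), and it was 1.02 level-matched and 0.78 without Ts65Dn replicate 4. On that array Myh4, the myosin heavy chain of the fastest (type IIb) fibres, was at 10.52, against 6.22 to 6.76 on the other Ts65Dn arrays and 5.89 to 6.44 in WT.

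Of the other fast-fibre markers, Mylpf, the fast regulatory light chain, was at 12.18 on that array, against 12.14 to 12.33 on the other Ts65Dn arrays and 12.02 to 12.21 in WT. The summed linear signal of 10 fast-fibre markers was 32007 to 34705 in Ts65Dn and 30507 to 32222 in WT, with Ts65Dn replicates 1 and 4 highest, and 8 of the 10 markers had a positive fold change. The part of fast-fibre content in the differences of Actn3, Flnc and Ankrd1 was not tested. In bulk muscle, more fibres of a type and more RNA per fibre cannot be told apart.

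**Figure D2:**
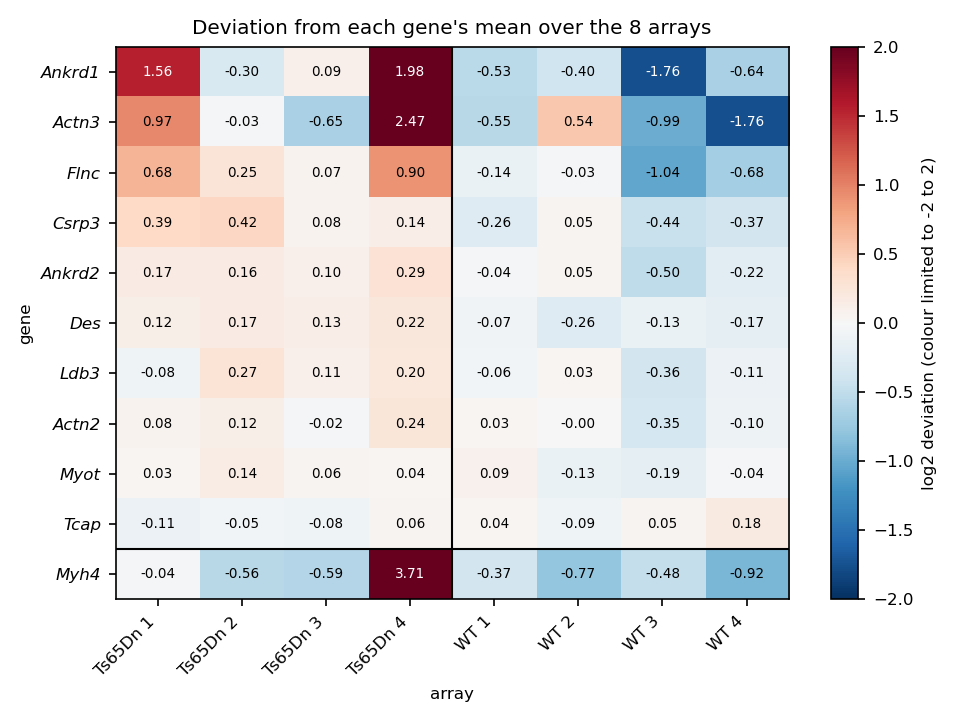
Deviation of the log2 value from the gene's mean over all 8 arrays, for the 10 genes and, under the line, the fast myosin Myh4, with Ts65Dn arrays left and WT arrays right. Ts65Dn replicates 1 and 4 stand out in Ankrd1, Actn3 and Flnc, and Ts65Dn replicate 4 in Myh4.

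The remaining lattice genes differed little. Actn2, the alpha-actinin present in all muscle fibres, was at 11.70, 11.74, 11.60 and 11.86 in Ts65Dn and 11.65, 11.62, 11.27 and 11.52 in WT. Its 3 highest arrays were Ts65Dn, and its log2 fold change of 0.21 (95% interval -0.07 to 0.48), 0.20 level-matched, did not pass (limma adjusted p = 0.247). Ldb3 (ZASP or Cypher), a PDZ and LIM adaptor of alpha-actinin, lay between 9.81 and 10.16 in Ts65Dn and between 9.53 and 9.92 in WT, a log2 difference of 0.25 (limma adjusted p = 0.196) that was 0.14 level-matched and 0.45 with centred arrays. Myot, which bundles actin at the Z-disc, was at 11.96, 12.07, 11.99 and 11.96 in Ts65Dn and 12.02, 11.79, 11.74 and 11.89 in WT, a log2 fold change of 0.14 (95% interval -0.11 to 0.38, limma adjusted p = 0.388), level-matched 0.13. All 3 genes overlapped between the groups.

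**Figure D3:**
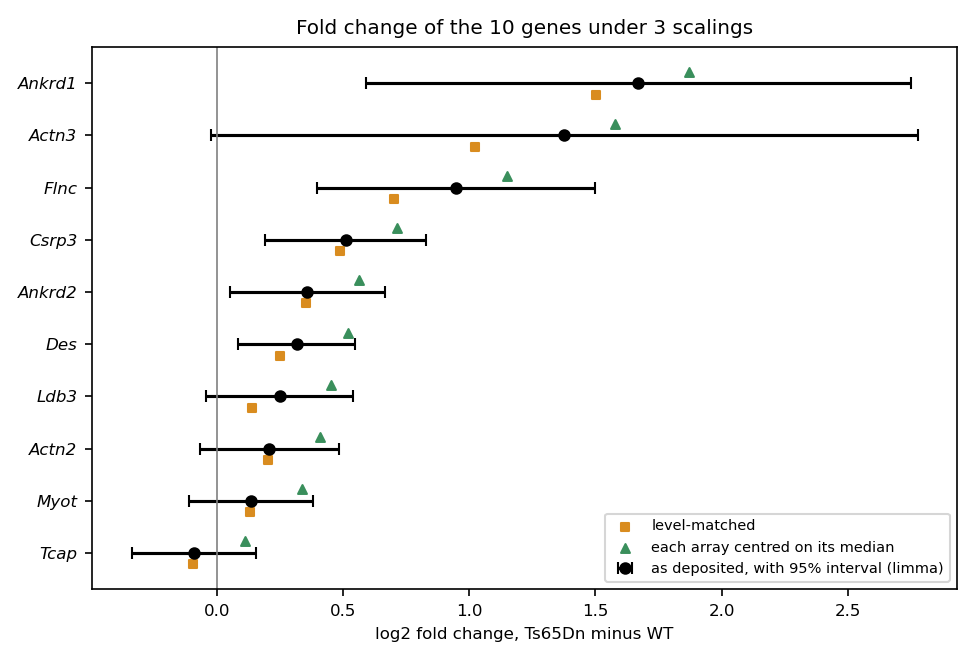
Log2 fold change (x axis, Ts65Dn minus WT) of each gene as deposited with its 95% interval from limma (black), level-matched (squares) and after centring of each array (triangles). The intervals of Ankrd1, Flnc, Csrp3, Ankrd2 and Des lie above 0, and Tcap changes side between scalings.

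Pairs of related members were compared by their difference within each array, which asks whether they differed between the groups by unequal amounts, by exact permutation (two-sided, 70 splits) with adjustment over the 3 pairs. Csrp3 minus Tcap was higher in Ts65Dn by 0.60 with a standard error of 0.19 (exact permutation p = 0.0571, adjusted 0.129), and 3 of 4 Ts65Dn arrays were above all WT arrays. Ankrd1 minus Ankrd2 was higher by 1.31 with a standard error of 0.56 (exact permutation p = 0.0857, adjusted 0.129), with 3 of 4 arrays above WT. Actn3 minus Actn2 was higher by 1.17 with a standard error of 0.78 (exact permutation p = 0.171, adjusted 0.171), with 2 of 4 arrays above WT. None of the 3 pairs passed, and the smallest p that 4 against 4 allows is 0.0286.

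The arrays ranked alike for many of the genes. Ts65Dn replicate 4 was the highest Ts65Dn array for 7 of the 10 genes and the lowest for 0, and WT replicate 3 was the lowest WT array for 7. WT replicate 3 was also the array with the narrowest spread of values, and without it the log2 fold change was 1.36 for Ankrd1, 0.76 for Flnc, 0.45 for Csrp3, 0.33 for Des and 0.25 for Ankrd2. After subtraction of the group means, the correlation between members over the 8 arrays was positive for 36 of 45 pairs, with a median of 0.37. It was highest for Actn2 with Ankrd2 (Pearson's r = 0.94) and lowest for Tcap with Csrp3 (r = -0.67), as a description of 8 arrays that share their scaling. Over 9512 named genes above the median level, the pattern most like that of Ankrd1 was that of Gucd1 (r = 0.98), and the one most like that of Actn3 was that of Mark4 (r = 0.98), where so many candidates over 8 arrays give high values.

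Other genes of the Z-disc and its surroundings were taken from a list of 36, of which 35 were measured. One was called higher and 1 lower by limma after adjustment, against 2.32% and 2.94% of all genes, so that 2 of 35 is near the 5.26% called overall. A positive fold change was held by 32, against 39.2% of all genes, and the median was 0.22 (0.10 level-matched, against 0.00 over all genes). An unadjusted p under 0.05 was held by 13 higher and 1 lower, against 12.3% and 22.6% of all genes. Palld (palladin), an actin-binding scaffold, was the gene called higher, at 7.23, 7.28, 7.05 and 7.33 in Ts65Dn against 6.69, 6.82, 6.23 and 6.65 in WT, a log2 difference of 0.62 (limma adjusted p = 0.0466) that was 0.33 level-matched, where the call was lost (limma adjusted p = 0.169). Igfn1, a Z-disc protein with immunoglobulin and fibronectin domains, was the gene called lower, at 4.10 ± 0.18 in Ts65Dn and 4.62 ± 0.14 in WT (log2, SD, n = 4). These values are near the array medians, and genes at 5 or below had a median of -0.22. Its log2 difference of -0.52 (limma adjusted p = 0.0493) was -0.24 level-matched, where the call was lost (limma adjusted p = 0.236). Level matching called 74 of all 19938 genes higher and 16 lower. The calcineurin-binding Z-disc protein Myoz1 (calsarcin-2), of fast fibres, differed by 0.47 on the log2 scale (limma adjusted p = 0.0518), and by 0.32 level-matched. Mypn (myopalladin), which joins nebulin and alpha-actinin and binds Ankrd1, differed by 0.68 (limma adjusted p = 0.0535), by 0.38 level-matched and by 0.37 without WT replicates 2 and 3.

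Among 13 measured relatives of the 10 genes, some of them also made outside muscle, 1 passed (Palld), against 2.32% of all genes called higher. A positive fold change was held by 10, against 39.2% of all genes, and the median was 0.23. Level-matched, 8 of the 13 were positive, against 9995 of 19938 genes, with a median of 0.15. Palld, Mypn, Ankrd23 and the Pdlim genes were also counted among the other Z-disc genes above. The non-muscle alpha-actinins Actn4 and Actn1 had log2 fold changes of 0.33 (limma adjusted p = 0.113; 0.15 level-matched) and -0.03, and the LIM proteins Csrp2 and Csrp1 0.23 and -0.01, where Actn1 and Csrp1 were positive with centred arrays and Csrp2 negative without WT replicate 4. Of the PDZ and LIM relatives of Ldb3, Pdlim3 was at 10.09 ± 0.15 in Ts65Dn and 9.27 ± 0.63 in WT (log2, SD, n = 4), without overlap, a difference of 0.82 (limma adjusted p = 0.0694). Pdlim5, Pdlim1 and Pdlim7 had log2 fold changes of 0.14, 0.07 and 0.06, and the last 2 were negative after level matching and Pdlim5 without WT replicates 2 and 3.

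**Figure D4:**
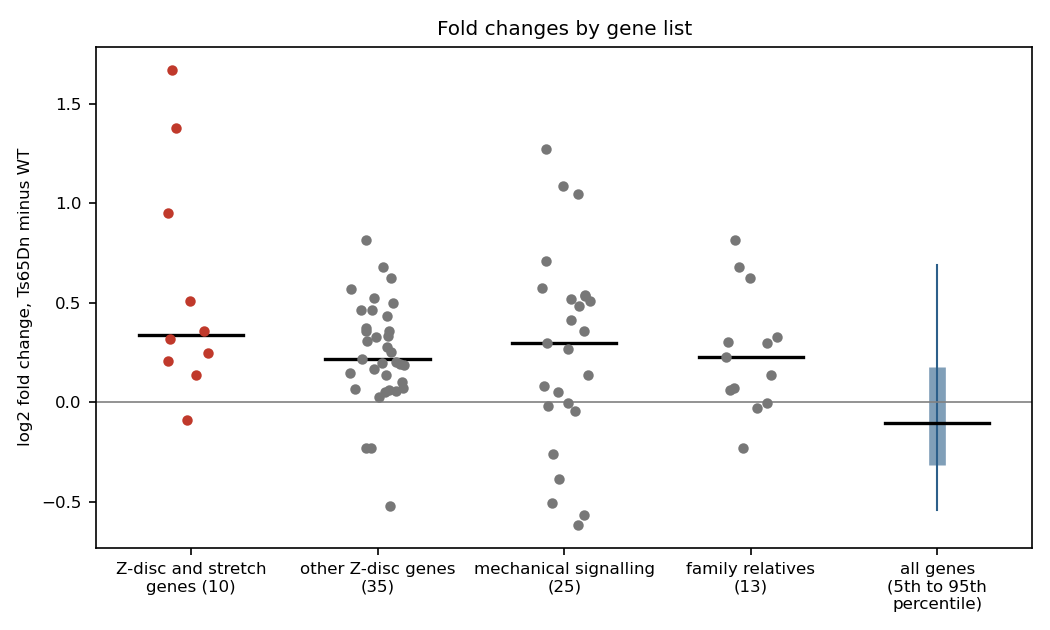
Log2 fold changes (y axis, Ts65Dn minus WT) of the 10 genes and of 3 other lists, 1 point per gene with the list median as a black line. The blue bar gives the middle of all 19938 genes (25th to 75th percentile, thin line 5th to 95th), whose median was -0.10. The list medians, 0.34, 0.22, 0.30 and 0.23, lie above it. The lists of other Z-disc genes and of family relatives share Palld, Mypn, Ankrd23 and the Pdlim genes.

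Genes that carry mechanical signals to the nucleus were described by a list of 26, of which 25 were measured. This list holds the TEAD factors and their coactivators, for which Ankrd1 is a known target. Of the 25, 3 were called higher and 0 lower, against 2.32% and 2.94% of all genes. At an unadjusted p under 0.05 there were 12 higher and 4 lower, against 12.3% and 22.6% of all genes, and the median was 0.30 (0.23 level-matched). Tead4, a TEAD factor of myoblasts, was at 7.41, 7.13, 6.75 and 7.54 in Ts65Dn against 5.80, 6.85, 5.98 and 5.83 in WT, a log2 difference of 1.09 (limma adjusted p = 0.0456). WT replicate 2 lay within the Ts65Dn range.

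Vcl, vinculin, which anchors actin at cell adhesions, differed by 1.05 on the log2 scale (limma adjusted p = 0.0489), which was 0.67 without WT replicates 2 and 3. Mrtfb, a coactivator of serum response factor, differed by 0.52 (limma adjusted p = 0.0483), with no overlap between the groups. Mustn1, a small nuclear protein of muscle and bone, was at 11.22, 10.50, 10.80 and 11.63 in Ts65Dn against 10.24, 10.25, 8.82 and 9.75 in WT, without overlap. Its difference of 1.27, 1.22 level-matched, was the highest of the 25 but did not pass (limma adjusted p = 0.0516). The factor Tead2, at 3.87 in Ts65Dn and 4.44 in WT, had a difference of -0.56 (limma adjusted p = 0.0516), -0.30 level-matched. Genes at 5 or below had a median of -0.22. The factors Tead1 and Tead3 had differences of 0.58 and 0.05 (level-matched 0.52 and 0.19). The coactivators Yap1 and Wwtr1 had 0.48 and 0.53 (level-matched 0.37 and 0.23). Tead1, Tead3, Yap1 and Wwtr1 did not pass. Known targets of YAP, the coactivator of TEAD factors, differed in sign: Ccn1 had 0.54, Ccn2 -0.26 and Amotl2 -0.51, and these 3 did not pass. Tead4, Vcl and Mrtfb, the 3 called genes, had level-matched differences of 0.85, 0.88 and 0.37, and were called neither after level matching nor without WT replicates 2 and 3. Level matching called 0.371% of all genes higher, and 1 of 19938 genes was called higher without WT replicates 2 and 3. The lost calls are thus not particular to these 3 genes.

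Markers of other cell types also differed. All 5 endothelial markers were positive and 2 of them passed, Kdr with a log2 difference of 0.99 (limma adjusted p = 0.0449) and Emcn with 1.18 (limma adjusted p = 0.0456). Kdr was also called after level matching (1.27, limma adjusted p = 0.0160), whereas the call of Emcn was lost (1.13, limma adjusted p = 0.0564), and Emcn was at 0.73 without WT replicates 2 and 3. The summed linear signal of the 5 was 384 to 506 in Ts65Dn and 206 to 322 in WT, without overlap. Of 6 fibroblast markers 4 were positive and 1 was called higher, Pdgfra with 0.62 (0.76 level-matched, limma adjusted p = 0.0445), and their sum was 1917 to 2411 in Ts65Dn and 1363 to 2089 in WT. Of 6 cardiac muscle markers, the embryonic and cardiac actin Actc1 was called higher with 1.18, a call lost after level matching (limma adjusted p = 0.0638), and the other 5 had a negative fold change. The summed signal of the 6 was 1211 to 1796 in Ts65Dn and 885 to 1132 in WT, without overlap. The summed signal of 5 macrophage markers was 176 to 739 in Ts65Dn and 121 to 155 in WT, without overlap. Cd68 was the brightest of the 5 on every Ts65Dn array, and each of the others overlapped between the groups. Only Cd68 of the 5, with 2.39, was called higher, a call lost after level matching (limma adjusted p = 0.0909), and 3 were positive. Cd163 and Csf1r had differences of 0.29 and 0.09, and Adgre1 and C1qa of -0.05 and -0.09. Of the other markers, 2 of 5 for adipocytes, 0 of 3 for Schwann cells and 0 of 2 for erythrocytes were positive. The summed signal of the Schwann cell markers was 80.8 to 89.9 in Ts65Dn and 96.1 to 112 in WT, without overlap. The sums of the adipocyte and erythrocyte markers overlapped between the groups. Of Kdr, Emcn, Pdgfra, Actc1 and Cd68, 0 were called without WT replicates 2 and 3. In that setting 1 of 19938 genes was called higher and 0 lower, and level matching called 0.371% of all genes higher. The lost calls are thus not particular to these markers. The part of these cells in the values of the 10 genes was not tested. No marker was at 0, and the lowest values were 4.09 among endothelial and 4.79 among fibroblast markers.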

How the data were processed

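Soleus RNA of 4 Ts65Dn and 4 wild-type mice was measured, each mouse on its own array. Per the labels' protocols, RNA was purified with a Qiagen RNeasy Mini Kit and amplified with the NuGEN Ovation Pico WTA system. The submitters' processing notes name RMA in Affymetrix Expression Console 1.1. The deposited table holds log2 values between 0.67 and 13.14, a scale inferred from that range. No build or annotation release is named in the sources used here. Precision is limited by having 4 arrays a group. The labels call the samples biological replicates.

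Of 35556 probe sets, 21789 have 1 gene symbol in the platform annotation, 1621 have several and 12146 have none. Symbols were updated by Entrez identifier with RefSeq (GRCm38.p6), and the brightest probe set per gene was kept, which left 19938 genes. Groups were compared with limma 3.58.1 (lmFit, eBayes, two-sided) in R 4.3.3, adjusted over all genes by Benjamini-Hochberg, with a threshold of 0.05 and no covariate. The test was checked on simulated data with independent noise and the same array spread in both groups. That check does not cover the difference in spread between the real groups. The 10 genes and all lists were chosen with earlier results of these data known. The rule for named genes took the 10, the 4 with the smallest p of each other list, all family relatives and the genes most correlated with each of the 10, and of the marker lists not all of these are printed. Tead1, Tead2, Tead3, Yap1, Wwtr1, Ccn1, Ccn2, Amotl2 and Adgre1 lie outside it and were chosen after their values were seen. Ckm, named as an example of the skeletal muscle markers, lies outside it too. Plots used Python 3.11.15, pandas 2.3.3 and matplotlib 3.10.9.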

Additional observations from a re-analysis of the deposited data

Results flagged for a closer look

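Within groups of 4 arrays, Dixon's ratio of the gap to the range was computed for 41 named genes, and 4 of 82 groups lay past its 95% critical value, which chance gives for about 1 in 20. None of the 10 Z-disc and stretch genes was among them. Myh4 was at 10.5 in Ts65Dn replicate 4, against 6.76, 6.25 and 6.22 on the other Ts65Dn arrays, the array on which Actn3 and Ankrd1 were also highest. Pdlim3 was at 10.3 in Ts65Dn replicate 1, against 10.03 or less in the others. Vcl was at 6.39 in Ts65Dn replicate 3, against 6.82 to 6.87 in the others. Tead4 was at 6.85 in WT replicate 2, against 5.80 to 5.98 in the others.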

How the results depend on the processing

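Every one of the 10 genes kept its direction under every alternative except Tcap, at 0.11 with arrays centred on their medians. Several alternatives change only the test or its adjustment and leave these fold changes as they were, so there the direction could not change. Of 200 alternative values, 188 stayed on the same side of the threshold in the same direction and 11 passed it. Of these 11, 4 passed only because the threshold was 0.10. None could lose a call, as 0 of the 10 passed as deposited. The number of the 10 called higher was 0, where 2.32% of all genes were. It was 3 with centred arrays (4.77% of all genes) and 3 with limma's trend and robust options (1.97%). At a threshold of 0.10 it was 4, where 1754 of all 19938 genes were called higher. With 1 array left out it was 0 to 1, and the 1 came without WT replicate 1 (6.09% of all genes). Centring moved the median log2 fold change of all genes to 0.10, against -0.10 as deposited, so changes under it are read against that shift.

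Counts over all genes rested on the scaling. Against 462 higher and 587 lower, limma called 1 and 0 after quantile normalization once more, 951 and 57 with centred arrays, 117 and 18 after cyclic loess, 74 and 16 after level matching, 294 and 142 among genes above the median level, 0 and 0 adjusted over all probe sets (2445 and 4503 had an unadjusted p under 0.05 as deposited), 159 and 77 with array weights, 1754 and 3207 at 0.10, and 1 and 0 without WT replicates 2 and 3. Leaving out 1 array gave 0 to 1215 higher and 0 to 1650 lower; calls were 1 or 0 without any 1 Ts65Dn array, WT replicate 2 or WT replicate 3, and 1215 and 876 higher without WT replicate 1 and 4. For the other Z-disc genes, 1 higher and 1 lower became 0 and 0 after quantile normalization, cyclic loess, level matching, adjustment over all probe sets, array weights and without WT replicates 2 and 3, 6 and 0 with centred arrays, and 9 higher at 0.10; the lower call was also 0 above the median level and with trend and robust options, and leaving out 1 array gave 0 to 3 and 0 to 1. For the mechanical list, 3 higher became 0 after quantile normalization, cyclic loess, level matching, adjustment over all probe sets and without WT replicates 2 and 3, 7 with centred arrays, 1 above the median level, 1 with array weights, 10 (and 4 lower) at 0.10, and 0 to 8 (0 to 3 lower) with 1 array left out. The cause was not tested.

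Among relatives near 0 the sign changed. Actn1 was at 0.12 after quantile normalization, 0.17 centred, 0.21 after cyclic loess, 0.25 level-matched, 0.11 with array weights, 0.26 without WT replicates 2 and 3, and -0.14 to 0.10 with 1 array left out. Csrp1 was at 0.20 centred, 0.030 with array weights, 0.072 without WT replicates 2 and 3, and -0.0844 to 0.0889 with 1 array left out. Pdlim1 was at -0.0597 after quantile normalization, -0.064 after cyclic loess, -0.083 level-matched, -0.0067 over the mean of probe sets, -0.039 with array weights and -0.14 without WT replicates 2 and 3, and -0.091 to 0.17 with 1 array left out. Pdlim7 was at -0.22 after quantile normalization, -0.15 after cyclic loess and -0.36 level-matched, and -0.080 to 0.16 with 1 array left out. Csrp2 ranged between -0.037 and 0.36 with 1 array left out. Vim was at -0.0058 level-matched and Pdlim5 at -0.032 without WT replicates 2 and 3.

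Replicate numbers are shared by the groups, but same-numbered arrays deviated together with correlations of only 0.01 to 0.09, and not every array correlated best with its own number. With the replicate number as a block, limma called 0 genes higher and 0 lower, and 0 of the other Z-disc and mechanical genes. Signal over background is not in the table, and 4 arrays a group limit the precision.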

Other observations

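Among 9512 named genes above the median level, the genes whose values ran most alike with the Z-disc genes over the 8 arrays, after subtraction of the group means, had Pearson's r of 0.93 to 0.99. Lamp1 ran most alike with Actn2 (r = 0.99), Pik3c3 with Ldb3 (r = 0.99) and Snx17 with Myot (r = 0.99). Zswim8 ran most alike with Flnc (r = 0.99), S100a10 with Tcap (r = 0.98) and Znrf2 with Csrp3 (r = 0.95). Mknk2 ran most alike with Ankrd2 (r = 0.98) and Zbed3 with Des (r = 0.99). These arrays share their scaling, and the values describe 8 arrays only.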
